A study of Papio anubis with 28 samples.

Results

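Gene expression was compared between tissue regenerated on a cell-seeded scaffold and the native bladder of the same olive baboon (Papio anubis), in the arm of the study labelled PRS. The samples were chosen by their labels, regenerated tissue against native bladder of the PRS arm, which gave 8 of the 28 libraries in the series: 4 animals with 1 library of each tissue. The labels give the genotype as WT and the treatment as an MSC/CD34+ HSPC graft for all 8 libraries, that is, primary bone marrow mesenchymal stromal cells with CD34-positive haematopoietic stem and progenitor cells. The native samples therefore came from bladders that carried the graft, and no bladder without an operation was compared. The other 20 libraries came from 5 animals with tissue regenerated on a scaffold labelled SIS, seeded with the same cell types, and from 5 animals with an ileum graft and no seeded cells (Entero), each with its own native bladder. The submitters' sample codes hold the letter F for animals 1 and 2 and M for animals 3 and 4 of the PRS arm, with no meaning stated. The labels do not spell out PRS, and they give neither the ages of the animals, nor the time since surgery, nor which region of each graft or bladder was taken.

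The bladder wall is lined by urothelium, a layered epithelium in which uroplakin proteins plate the surface of the umbrella cells, and basal cells that make the transcription factor TP63 lie on the basement membrane. Beneath it are a lamina propria of collagen, vessels and nerves, and the detrusor, a smooth muscle that empties the bladder when acetylcholine and ATP are released from parasympathetic nerves. Augmentation enlarges a bladder with other tissue: ileum brings an absorbing and mucus-secreting epithelium, whereas a scaffold has to be populated by new epithelium, muscle, vessels and nerves. RNA of a whole piece of tissue sums all of these cells, so a lower level can come from fewer cells of a type or from less RNA per cell, and these cannot be told apart here.

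The 8 libraries held 22576355 to 35669026 reads counted to genes, against 20975648 to 35669026 over all 28 libraries. Levels stand in CPM, the unit that divides counts by library size, here adjusted by the TMM method, in the order of animals 1 to 4. With 0 reads in the 4 native libraries a gene lies below 0.0258 CPM over that group, and below 0.0273 CPM for the 4 grafts, taking 3 counts as the limit. These limits and all read ratios cover counting error only. Native libraries 1 to 3 stood apart in their scarce transcripts. They had 520, 630 and 440 genes with 1 to 10 reads, native library 4 had 1805, and the grafts had 2248, 1040, 1423 and 1791. The other 20 libraries ranged from 288 to 3375 with a median of 2007. In the same direction, 20 genes had no read in any of the 4 natives and reads in all 4 grafts, and 1 gene had the reverse. These counts were 1 and 1 in the SIS arm, and 19 and 58 in the Entero arm, whose grafts are ileum. The part of the few scarce transcripts in PRS natives 1 to 3 in the results on scarce genes was not tested. Those results carry their native values beside them.

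**Figure D1:**
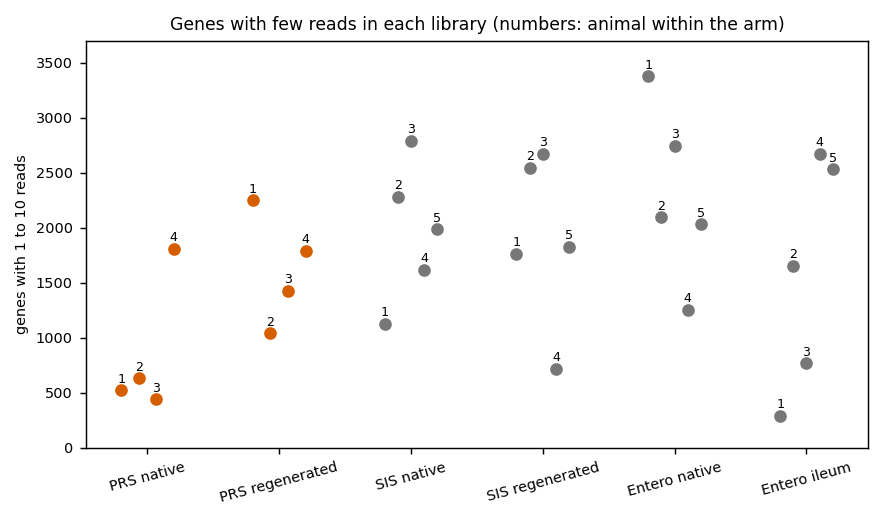
Number of genes with 1 to 10 reads (y axis) in each of the 28 libraries, by group (x axis); each point is a library, numbered by animal within its arm, with the PRS arm in orange. Native libraries 1 to 3 of the PRS arm lie between 440 and 630, below their own grafts at 1040 to 2248.

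No gene was called different between regenerated tissue and native bladder. edgeR's quasi-likelihood test called 0 of 17177 genes (0%) at an adjusted p of 0.05, and its smallest adjusted p was 1. At an unadjusted p of 0.05 the count was 622 (3.62%), 429 of them higher in the graft (2.5%) and 193 lower (1.12%). That count rested on the libraries used: it was 1296 (7.40%) without native 4 and 253 (1.65%) in a fit of the PRS libraries only. With the animal as a block edgeR again called 0, with a smallest adjusted p of 0.259 and 554 genes at the unadjusted threshold (3.23%). Without native 4 it called 3, RAB44, TRPC4 and P2RX7, whose native reads all lay in that library. DESeq2 called 30 of 20961 genes (0.143%), 26 of them higher (0.124%) and 4 lower (0.0191%), of which 22 had a group without a read and 15 stayed under 1 CPM in all 8 libraries. The median log2 fold change over all genes tested was 0.02, and 51.8% of genes had a positive value. The absence of calls was not a narrow interval for every gene: the 95% interval lay within 4-fold either way for 62.4% of genes and within 2-fold for 29.8%. Gene values below are therefore descriptions of 4 animals unless a test is named, and a log2 fold change is the graft minus the native bladder with its standard error (SE, n = 4 against 4).

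Direction was also counted animal by animal. The graft was higher than the native bladder of its own animal in 4 of 4 animals for 949 genes (5.52%) and lower in 4 of 4 for 715 (4.16%). For 136 genes (0.792%) all 4 grafts lay above all 4 natives, and for 70 (0.408%) all lay below. These shares are the background against which each list of genes is read below.

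The distance of each graft from its own native bladder, 1 minus Pearson's r of log2(CPM + 1) over the genes tested, was 0.0395, 0.120, 0.0805 and 0.0399. Grafts 1 and 4 were closest to their own animal's native library among the 4 PRS natives, graft 2 was closest to native 1 and graft 3 to native 4. Native libraries differed among themselves by 0.0692 to 0.171 and grafts by 0.0346 to 0.206, so the 4 graft-to-native distances lay within or below the range among natives. The mean distance was 0.0700 ± 0.0385 (SD, n = 4), against 0.0825 ± 0.0571 (SD, n = 5) in the SIS arm (exact permutation p = 0.706) and 0.192 ± 0.0254 (SD, n = 5) for ileum grafts (exact permutation p = 0.00794, adjusted over both comparisons 0.0159).

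Among transcripts of the umbrella cells, UPK1A, UPK2 and UPK1B were lower in 3 of 4 grafts and higher in graft 1. UPK1A, a tetraspanin of the uroplakin plaque, counted 498, 2206, 1619 and 168 CPM in the natives and 826, 135, 213 and 42.4 CPM in the grafts. Its partner UPK2 counted 281, 902, 552 and 46.3 CPM in the natives and 444, 42.1, 68.2 and 10.1 CPM in the grafts. UPK1B, the tetraspanin that carries UPK3A to the surface, counted 118, 318, 422 and 36 CPM in the natives and 129, 39.1, 26.4 and 3.39 CPM in the grafts. For all 3 genes the groups overlapped, with animal 1 higher in the graft and animals 2, 3 and 4 lower. Fitted log2 fold changes were -1.88 (SE 1.15) for UPK1A, -1.66 (SE 1.22) for UPK2 and -2.18 (SE 1.18) for UPK1B.

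UPK3A went another way. It counted 259, 1559, 1230.2 and 433 CPM in the natives and 854, 97.6, 1144 and 1136 CPM in the grafts, with grafts 1, 3 and 4 inside the native range and graft 2 far below it. Its log2 fold change was -0.11 (SE 0.96). Among the other umbrella cell genes, GRHL3, a transcription factor of the barrier programme, counted 36.3, 102, 150.2 and 33.4 CPM in the natives and 53.9, 10.2, 20.1 and 18.1 CPM in the grafts (log2 fold change -1.65, SE 0.73). SNX31, a sorting nexin that binds uroplakins, counted 58.9, 78.4, 194 and 45.6 CPM against 70.5, 13.3, 31.9 and 26.9 CPM. Both were again higher in graft 1 and lower in grafts 2, 3 and 4. KRT20, a keratin of mature umbrella cells, was scarce in all 8 libraries, at most 8.15 CPM in the natives and 8.18 CPM in the grafts.

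Of the 14 genes listed for urothelial differentiation 0 were called, 1 (GRHL3) was lower at an unadjusted p under 0.05 (1.12% of all genes), 12 had a negative log2 fold change and 2 a positive one, with a median of -0.93 against 0.02 over all genes. None of the 14 was lower in 4 of 4 animals (4.16% of all genes). By animal the list mean of log2(CPM + 1) differed, graft minus native, by 0.78, -3.49, -1.38 and -0.50. The native list means were 6.69, 7.87, 8.01 and 6.4, and grafts 2 and 4 fell below all of them. Graft 2 also had the highest smooth muscle list mean of the 8 libraries, 11.5, against 6.08 to 10.7 in the other 7, and the part of muscle content in the urothelial values was not tested.

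Basal cells were described by TP63 and the keratins. TP63 counted 66.1, 66.2, 78 and 28.6 CPM in the natives and 47.3, 6.55, 12.8 and 10.5 CPM in the grafts, lower in the graft in 4 of 4 animals, with grafts 2, 3 and 4 below every native (log2 fold change -1.63, SE 0.93). KRT13, a keratin of basal and intermediate urothelium, counted 319.8, 21.1, 154 and 77.2 CPM against 104, 5.63, 11.1 and 4.85 CPM, also lower in 4 of 4 animals. KRT17, a keratin of basal and regenerating epithelium, counted 4.55, 3.87, 25.4 and 47 CPM against 30.6, 0.879, 178 and 48.4 CPM, higher in the grafts of animals 1 and 3, nearly equal in animal 4 and lower in animal 2. Of the 9 basal and intermediate genes tested, 0 were called and 0 had an unadjusted p under 0.05. TP63 and KRT13 were the 2 that were lower in 4 of 4 animals (4.16% of all genes). The list as a whole did not follow them: 6 had a positive and 3 a negative log2 fold change, with a median of 0.15. Its list mean differed by 0.54, -2.18, -0.27 and -0.46, graft minus native. KRT5, the keratin that usually marks basal cells, is not in the table under its symbol and was not analysed here.

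Squamous genes did not move one way. SPRR1B, a cornified envelope precursor, counted 119, 238, 304 and 18.2 CPM in the natives and 71.5, 19.3, 27.8 and 4.85 CPM in the grafts, lower in 4 of 4 animals (log2 fold change -2.46, SE 1.18). PKP1, a desmosome plaque protein of stratified epithelia that belongs to the epithelial junction list, counted 8.84, 51.1, 84.2 and 6.31 CPM against 5.48, 4.59, 6.58 and 2.37 CPM, lower in 4 of 4 animals (log2 fold change -2.98, SE 1.15). FAM83C, one of the 12 genes with the smallest p among those lower in all 4 animals, counted 9.52, 42.1, 50 and 9.51 CPM against 5.86, 2.96, 4.54 and 3 CPM, and all 4 grafts lay below all 4 natives. Of the 10 squamous genes tested, 0 were called, 1 higher and 1 lower (TGM3 and SPRR1B) had an unadjusted p under 0.05, and the median was -0.43. Of these 10, 4 had a positive and 6 a negative log2 fold change. TGM1, a transglutaminase of the cornified envelope, counted 2.03, 0, 4.48 and 7.64 CPM in the natives and 6.65, 1.64, 11.8 and 16.2 CPM in the grafts, higher in 4 of 4 animals (log2 fold change 1.36, SE 0.89). TGM3 rested on 16 reads in graft 4 alone.

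**Figure D2:**
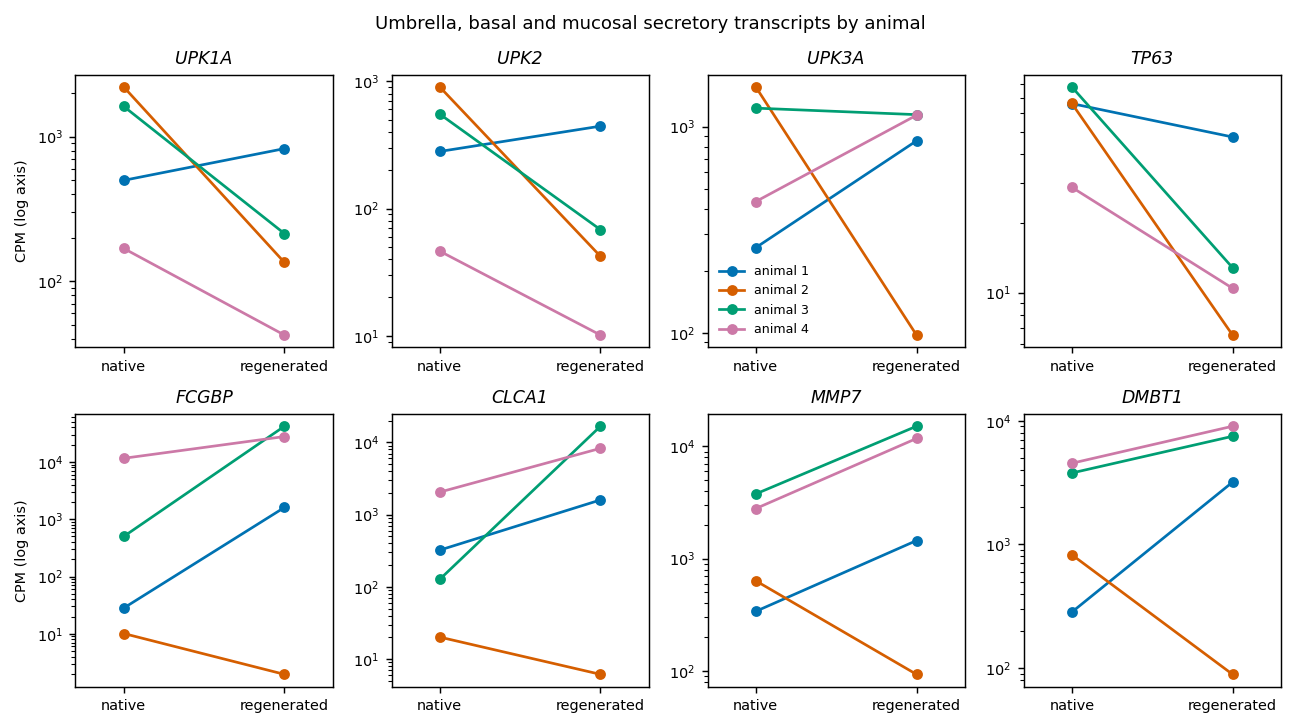
CPM on a log axis (y) of 4 urothelial genes (top row) and 4 secretory or mucosal genes (bottom row) in native bladder and regenerated tissue (x); each line joins the 2 libraries of an animal. UPK1A and UPK2 are lower in grafts 2, 3 and 4 and TP63 in all 4 grafts, while FCGBP, CLCA1, MMP7 and DMBT1 are higher in grafts 1, 3 and 4 and lower in graft 2.

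The mucus genes FCGBP and CLCA1 were higher in grafts 1, 3 and 4 than in their natives and lower in graft 2. FCGBP, a large protein of mucus gels, counted 28.1, 10.1, 499.6 and 11577 CPM in the natives and 1606, 1.96, 42014 and 27769 CPM in the grafts. CLCA1, a protease secreted with mucin, counted 323, 20.2, 127 and 2054 CPM against 1601, 6.15, 16775 and 8293 CPM. For both, native library 4 already stood far above the other natives. On the log2 scale the fold changes were 2.56 (SE 1.95) for FCGBP and 3.4 (SE 1.56) for CLCA1. TFF3, the goblet cell trefoil peptide, had reads in native 4 (15.2 CPM) and in grafts 3 and 4 (40 and 74.4 CPM) and none in the other 5 libraries. CHGA, a granule protein of endocrine cells, counted 9.8, 0, 0 and 2.42 CPM against 79.1, 0.959, 29.6 and 31.2 CPM, higher in 4 of 4 animals, although graft 2 lay below natives 1 and 4.

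Several antimicrobial and transport genes were also higher in grafts 1, 3 and 4 than in their natives, but not in graft 2. DMBT1, PIGR, LCN2, FCGBP and TFF3 were singled out after their values were seen. DMBT1, a secreted scavenger receptor, counted 283, 824, 3781 and 4533 CPM in the natives and 3189, 88.6, 7496 and 9038 CPM in the grafts. PIGR, which carries IgA across epithelium, counted 116, 49.3, 2011 and 4268 CPM against 1374, 2.12, 6726 and 7000.0 CPM. LCN2, an iron-sequestering lipocalin, counted 8.84, 0, 79.7 and 2417 CPM against 1121, 0, 4973 and 7383 CPM. In each of them grafts 1, 3 and 4 lay above their own natives and graft 2 did not, and natives 3 and 4 lay above natives 1 and 2. MMP7, matrilysin, a protease of glandular epithelium, counted 339.7, 635, 3776 and 2796 CPM against 1451, 93.3, 15132 and 11773 CPM (log2 fold change 1.91, SE 1.12).

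EPCAM and CLDN3, junction genes of simple epithelium, followed, but the list of epithelial junction genes did not move one way. EPCAM counted 67.1, 32.5, 127 and 364 CPM in the natives and 290.5, 7.19, 934 and 910.0 CPM in the grafts, and CLDN3, a tight junction claudin, 13.9, 73.1, 58 and 108 CPM against 159, 2.44, 448 and 261 CPM. SOX9, a transcription factor of glandular progenitors, counted 19.8, 8.73, 7.34 and 40 CPM against 117, 2.72, 190.1 and 85.7 CPM, and PROM1, an apical membrane protein, 1.07, 0, 1.91 and 33.4 CPM against 26.9, 1.12, 209 and 186 CPM. These 4 genes were each highest in graft 3 and, except for PROM1, lower in graft 2 than in its native. PSCA, a surface protein of urothelium, counted 1451, 7216, 3446 and 3221 CPM against 5270.4, 328, 6139 and 6645 CPM (log2 fold change 0.26, SE 1.16), higher in grafts 1, 3 and 4 and far lower in graft 2. Of the 10 epithelial junction genes tested 0 were called, and 0 higher and 1 lower (PKP1) had an unadjusted p under 0.05. In that list 6 had a positive and 4 a negative log2 fold change, with a median of 0.10. None was higher in 4 of 4 animals, and PKP1 was lower in 4 of 4. The list mean differed by 1.36, -2.98, 0.34 and 0.31, graft minus native.

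Several defining genes of intestinal absorptive cells stayed at or near 0, while SLC5A1, CDHR5 and LGALS4 reached higher levels. CDX2, the transcription factor of intestinal identity, had 0 reads in the natives and 1 read in the grafts. VIL1, villin of the brush border, had 2 reads in the natives and 43 in the grafts, a ratio of 22.8 (exact interval of the counts 5.93 to 194). Its level was 0.243, 0.519, 0.421 and 0.394 CPM in the grafts, and all 4 grafts lay above all 4 natives. It was among the 12 genes of smallest p that were higher in all 4 animals. FABP1, FABP2, SI and LCT, a pair of fatty acid binding proteins and the disaccharidases of enterocytes, had 0 reads in all 8 libraries, which allows up to 0.0133 CPM. SLC5A1, a sodium and glucose cotransporter, counted 0, 0, 0 and 80.2 CPM against 3.85, 0, 91.4 and 238 CPM, with reads only in native 4 and grafts 1, 3 and 4. CDHR5, a brush border cadherin, counted 1.24, 0, 1.55 and 3.39 CPM against 3.02, 0.439, 17.4 and 5.76 CPM, higher in 4 of 4 animals. LGALS4, a galectin, counted 37.2, 201, 133 and 26.5 CPM against 43.5, 6.59, 54.7 and 34 CPM, lower in animals 2 and 3.

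Of the 16 intestinal epithelium genes 0 were called, 1 (VIL1) had an unadjusted p under 0.05, and 4 (MUC13, CDHR5, VIL1 and GUCY2C) were higher in 4 of 4 animals (5.52% of all genes). Its median was 0.05, or 0.81 without the 6 genes at or under 3 reads in both groups. Of the 10 tested genes of the intestinal secretory and crypt list 0 were called, 3 higher (ATOH1, CLCA1 and CHGA) had an unadjusted p under 0.05, and the median log2 fold change was 1.46, or 2.4 with ATOH1, which had 0 native reads, at its bound and the 1 gene at or under 3 reads in both groups left out. By animal the mean of that list differed, graft minus native, by 1.58, -0.63, 2.59 and 0.78. Grafts 1, 3 and 4 were higher and graft 2 lower. Whether these transcripts came from urothelium, from glands or from another lining was not tested.

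Smooth muscle genes separated the animals more than the tissues. DES, the intermediate filament of muscle, counted 27326, 28786, 2850.1 and 1144 CPM in the natives and 9165, 31035, 1681 and 1524 CPM in the grafts. ACTG2, the actin of visceral smooth muscle, counted 11587, 16481, 1429 and 333 CPM against 4127, 18573, 479 and 433 CPM. In animals 1 and 2 both tissues were rich in these transcripts, in animals 3 and 4 both were poor, and graft 2 had the highest value of all 8 libraries for each. That split is also the split by the letters F and M in the sample codes, and the letter cannot be told apart from the individual animals. The log2 fold changes were -0.47 (SE 1.1) for DES and -0.34 (SE 1.2) for ACTG2. The groups overlapped almost fully.

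Graft 2 was also the highest library for the next pair of muscle genes. MYOCD, the coactivator that drives the smooth muscle programme, counted 37.6, 41, 7.21 and 1.36 CPM in the natives and 15.8, 135, 1.26 and 0.789 CPM in the grafts, and CASQ2, a calcium store protein, 195, 309.7, 47.9 and 3.7 CPM against 53.8, 919, 1.62 and 1.74 CPM. Both were higher in the graft in animal 2 and lower in animals 1, 3 and 4. CNN1, calponin, counted 4468, 5085, 601 and 187 CPM against 1633, 4924, 241 and 238 CPM. Of the 16 contractile genes tested 0 were called, 0 had an unadjusted p under 0.05, 7 had a positive and 9 a negative log2 fold change, the median was -0.04, and none moved the same way in 4 of 4 animals. The list mean differed by -1.48, 0.76, -1.36 and -0.07, graft minus native. MYH11 is not in the table under its symbol and was not analysed here.

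Among the receptors and channels of bladder contraction, OXTR and GUCY1A1 had the smallest p. OXTR, the oxytocin receptor, counted 2.71, 4.32, 4.4 and 7.37 CPM in the natives and 7.04, 18.3, 24 and 10.9 CPM in the grafts, higher in 4 of 4 animals (log2 fold change 1.68, SE 0.81). GUCY1A1, a subunit of the guanylate cyclase that nitric oxide activates, counted 15.6, 4.85, 8.18 and 14.1 CPM against 15.1, 27.8, 35.4 and 25.8 CPM, close to equal in animal 1 and higher in the graft in animals 2, 3 and 4. ADRB3, the beta-3 adrenoceptor that relaxes the detrusor, counted 4.32, 6.89, 0.786 and 2.22 CPM against 4.64, 25, 0 and 0.434 CPM, highest in graft 2. Of the 15 genes tested 0 were called and 2 higher had an unadjusted p under 0.05 (2.5% of all genes). In this list 12 had a positive and 3 a negative log2 fold change, with a median of 0.45. By animal the list mean did not go one way. It differed by -0.78, 1.12, -0.44 and 0.10, graft minus native, higher in 2 animals and lower in 2.

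**Figure D3:**
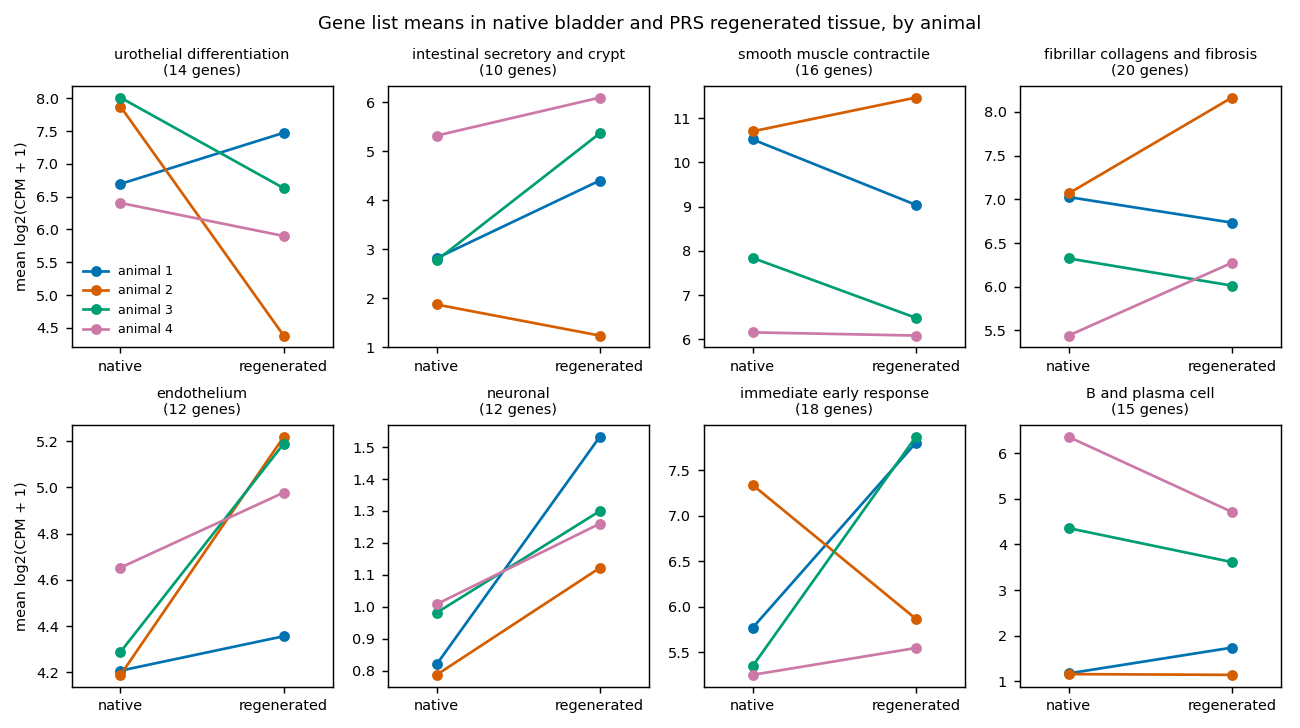
Mean log2(CPM + 1) of 8 gene lists (y axis, scaled per panel) in native bladder and regenerated tissue (x axis); each line joins the 2 libraries of an animal, and the number of genes tested stands under each list's name. The endothelial and neuronal lists are higher in the graft in 4 of 4 animals, whereas the lists of urothelium, mucus, muscle and immediate early genes have at least 1 animal going the other way.

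Collagen genes were higher in the grafts of animals 2 and 4. COL3A1, a fibrillar collagen of soft tissue, counted 478, 635, 429.9 and 274 CPM in the natives and 617, 2005, 347 and 575 CPM in the grafts, and COL1A1, the main collagen of scars and tendon, 756, 1895, 868 and 372 CPM against 950.1, 3859.9, 574 and 1090.1 CPM. For both, animals 1, 2 and 4 were higher in the graft and animal 3 lower, and graft 2 had the highest value. FAP, a protease of activated fibroblasts, counted 43, 27.7, 16.8 and 8.81 CPM against 42.4, 124, 18.3 and 28.7 CPM, with graft 2 again the highest. Fitted log2 fold changes were 0.96 (SE 0.67) for COL3A1, 0.73 (SE 0.86) for COL1A1 and 1.15 (SE 0.84) for FAP. Of the 20 collagen and fibrosis genes 0 were called, 1 (COL11A1, 2 native reads against 54) had an unadjusted p under 0.05, 18 had a positive log2 fold change and the median was 0.57. The list mean was higher in the grafts of animals 2 and 4 and lower in those of animals 1 and 3 (-0.29, 1.1, -0.31 and 0.83).

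The elastic fibre list had a median of 0.25, with 0 of 17 genes called and 0 at an unadjusted p under 0.05. ELN, elastin, counted 70.3, 87.9, 33.5 and 14.9 CPM against 50.8, 114, 53.1 and 34.3 CPM, and MFAP4, a microfibril glycoprotein, 975, 1665, 357 and 153 CPM against 584, 586, 153 and 194 CPM, higher in the graft in animal 4 alone. Among signalling genes of the matrix, SMAD7, the inhibitor induced by TGF-beta, counted 20.3, 30.3, 12 and 18.7 CPM against 19.5, 13.8, 7.29 and 8.36 CPM, lower in 4 of 4 animals (log2 fold change -0.73, SE 0.36). GREM1, an antagonist of BMP ligands, counted 7.35, 1.88, 1.76 and 9.82 CPM against 43.4, 13.5, 6.94 and 5.92 CPM, higher in animals 1, 2 and 3. Of the 15 TGF-beta and BMP genes and of the 19 WNT and hedgehog genes 0 were called and 0 had an unadjusted p under 0.05, with medians of 0.13 and -0.45.

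Positional transcription factors of the bladder mesenchyme were present in the grafts. HOXD13, a factor of the hindmost body region, counted 69.5, 41.6, 3.07 and 11.6 CPM in the natives and 22.4, 29.3, 13.3 and 15 CPM in the grafts. TBX2, a T-box factor of urinary tract mesenchyme, counted 86.4, 113, 155 and 43.5 CPM against 59.6, 74.4, 21.2 and 30.8 CPM, lower in 4 of 4 animals (log2 fold change -1.1, SE 0.54). TBX4, the hindlimb and allantois factor, counted 51.9, 26.7, 5.98 and 0.0779 CPM against 17.7, 72.8, 0 and 0 CPM, with no read in grafts 3 and 4. BARX1, a factor of stomach mesenchyme, and NKX2-3, a factor of gut mesenchyme, had their highest values in grafts 3 and 4, 0.277, 1.08, 18.9 and 42.6 CPM for BARX1 over the 4 grafts and 0, 0, 0.648 and 1.34 CPM for NKX2-3. BARX1 was also at 10.8 CPM in native 4, and NKX2-3 had 2 native reads against 54 graft reads, a ratio of 28.6 (exact interval of the counts 7.54 to 242). Of the 15 regional factors tested 0 were called, 1 (NKX2-3) had an unadjusted p under 0.05 and the median was 0.10.

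Vessel genes were higher in the graft in most animals. PECAM1, the endothelial adhesion molecule CD31, counted 58.5, 46.1, 58.9 and 96.3 CPM in the natives and 55.1, 238, 141 and 107 CPM in the grafts. KDR, the main VEGF receptor of blood vessels, counted 4.72, 3.71, 6.84 and 22.1 CPM against 35, 13.9, 20.4 and 33.2 CPM. KDR was higher in 4 of 4 animals, and PECAM1 in animals 2, 3 and 4, with both groups overlapping. On the log2 scale the fold changes were 1.06 (SE 0.44) for PECAM1 and 1.45 (SE 0.59) for KDR. CDH5, the cadherin of endothelial junctions, counted 10.9, 11.3, 8.65 and 14.6 CPM against 10.1, 30.5, 32.7 and 21.3 CPM, and VWF, the clotting factor stored in endothelium, 64.7, 95.8, 76.8 and 115 CPM against 54.3, 218, 225 and 143 CPM, both higher in grafts 2, 3 and 4 and lower in graft 1.

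Of the 12 endothelial genes tested 0 were called, 2 higher had an unadjusted p under 0.05, 10 had a positive log2 fold change, and the median was 0.63. In all 4 animals the graft had the higher list mean, by 0.15, 1.03, 0.90 and 0.32. Of the 7 lymphatic genes 0 were called, 1 higher had an unadjusted p under 0.05 and 6 had a positive log2 fold change, with a median of 1.08. FLT4, the lymphatic VEGF receptor, counted 6.84, 9.58, 4.82 and 7.87 CPM against 6.62, 25.8, 21 and 20.6 CPM (log2 fold change 1.35, SE 0.51), and LYVE1, a hyaluronan receptor of lymphatic vessels, 28.4, 49.1, 9.93 and 5.96 CPM against 27.4, 138, 5.64 and 25.8 CPM. For FLT4 grafts 2, 3 and 4 lay above all natives and graft 1 lay within them. VEGFA, the ligand of KDR, counted 103, 106, 112 and 102 CPM against 248, 49.3, 198 and 209.9 CPM, higher in grafts 1, 3 and 4 and lower in graft 2 (log2 fold change 0.74, SE 0.47).

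Transcripts of sensory neuropeptides were seen mainly in grafts 1, 3 and 4. TAC1, the precursor of substance P, counted 0.706, 1.67, 1.7 and 8.85 CPM in the natives and 43.4, 0, 59.6 and 47.2 CPM in the grafts (log2 fold change 3.54, SE 1.27). CALCA, the precursor of calcitonin and CGRP, had 0 native reads and 60 graft reads, at least 21.2-fold higher over the group against 3 counts, with 1.11, 0, 0.486 and 0.513 CPM in the grafts. Graft 2 had no read of either. SNAP25, a protein of synaptic vesicle release, counted 0, 0, 0 and 0.468 CPM against 0.728, 1.32, 1.07 and 1.38 CPM, higher in 4 of 4 animals, and all grafts lay above all natives. SCG3, a granule protein of neurons and endocrine cells, counted 0.565, 0.0408, 0.367 and 1.36 CPM against 2.11, 4.87, 3.86 and 5.17 CPM, and again no graft overlapped a native (log2 fold change 2.77, SE 0.78). In native bladders of the other arms SCG3 ranged from 2.02 to 6.27 CPM (SIS) and from 1.07 to 4.11 CPM (Entero).

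Other nerve genes did not share this. UCHL1, a general marker of nerve fibres, counted 9.38, 9.66, 9.25 and 12.1 CPM against 5.13, 10.6, 5.02 and 11.1 CPM (log2 fold change -0.34, SE 0.71). Of the 12 neuronal genes tested 0 were called by edgeR, 3 higher had an unadjusted p under 0.05, 2 were higher in 4 of 4 animals, and the median was 1.3, or 0.57 with the 2 genes without native reads at their bounds and 1 gene at or under 3 reads in both groups left out. The list mean was higher by 0.71, 0.33, 0.32 and 0.25 in animals 1 to 4. It ran from 0.79 to 1.01 in the PRS natives and from 1.12 to 1.53 in the grafts. In native bladders of the other arms it ran from 0.89 to 3.45, and the part of low PRS natives in the difference was not tested. S100B, a glial calcium-binding protein, counted 5.17, 5.1, 1.47 and 6.98 CPM in the natives and 2.32, 12.7, 8.01 and 4.34 CPM in the grafts, highest in graft 2, and the groups overlapped. Of the 10 Schwann cell genes 0 were called and 0 had an unadjusted p under 0.05. CHGA, the endocrine granule gene described with the mucus genes, was highest in graft 1 and at 29.6 and 31.2 CPM in grafts 3 and 4, the same grafts that held TAC1, and its part in the neuropeptide values was not tested.

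Immediate early genes, which cells switch on within minutes of a stimulus such as injury or handling, were the list with the most members at an unadjusted p under 0.05, 5 of 18. All 5 were higher in the graft (2.5% of all genes). FOS was the only gene of the list that was higher in 4 of 4 animals (5.52% of all genes). FOS counted 53.7, 335, 91.9 and 164 CPM in the natives and 565, 352, 3212 and 425 CPM in the grafts, higher in 4 of 4 animals with no overlap of the groups. DUSP1, a phosphatase that ends MAP kinase signalling, counted 75, 205, 60.4 and 106 CPM against 430.4, 119, 1905 and 255 CPM. FOSB counted 25.6, 199, 19.3 and 18.4 CPM against 1071, 63.1, 995 and 33.7 CPM. DUSP1 and FOSB were higher in grafts 1, 3 and 4 and lower in graft 2, whose native had the highest native value of both. The log2 fold changes were 2.82 (SE 0.86) for FOS, 2.6 (SE 0.78) for DUSP1 and 3.04 (SE 1.23) for FOSB. EGR1 counted 144.9, 342, 107 and 51.3 CPM against 518, 213, 912 and 106 CPM (log2 fold change 1.44, SE 0.67). None of the 18 was called, 16 had a positive log2 fold change, the median was 0.99, and the list mean differed by 2.03, -1.47, 2.52 and 0.29.

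Inflammatory mediators were less uniform. PTGS2, the inducible prostaglandin synthase, counted 5.96, 9.34, 6.53 and 6.82 CPM in the natives and 29.5, 18.3, 37.4 and 4.3 CPM in the grafts, higher in grafts 1, 2 and 3 and lower in graft 4. LIF, a cytokine of the IL6 family, counted 1.24, 12, 3.15 and 14.5 CPM against 15, 4.39, 41.5 and 16.4 CPM, and CCL20, a chemokine of mucosal epithelium, 4.6, 0.734, 18 and 123 CPM against 55.8, 0.399, 248 and 179 CPM. CX3CL1, a chemokine anchored to endothelium and epithelium, was among the 12 genes of smallest p that were higher in all 4 animals, with 4.8, 8.28, 8.15 and 16.7 CPM against 8.14, 11.1, 156 and 34.9 CPM, most of the difference lying in graft 3 (log2 fold change 2.47, SE 0.62). Of the 13 cytokine genes tested 0 were called and 0 had an unadjusted p under 0.05. Of the 15 interferon response genes 0 were called, 0 had an unadjusted p under 0.05 and 14 had a negative log2 fold change. Their list mean differed, graft minus native, by 0.53, 0.07, 0.35 and -1.45, higher in the graft in animals 1, 2 and 3 and lower in animal 4. OAS2, an interferon-induced RNA sensor, counted 2.23, 13.2, 15.9 and 94.6 CPM against 11, 5.19, 7.07 and 28.2 CPM, and native 4 was by far the highest of the 8.

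Lymphocyte genes were highest in native 4. CD79A, part of the B cell receptor, counted 2.26, 2.45, 43.1 and 197 CPM in the natives and 3.29, 2.12, 18 and 48.5 CPM in the grafts, and JCHAIN, the joining chain of plasma cell antibodies, 19.7, 42.8, 275 and 988 CPM against 49.2, 30.8, 121 and 658 CPM. CD3E, part of the T cell receptor complex, counted 10.3, 0.979, 21.4 and 80.9 CPM against 19.8, 3, 8.56 and 26.9 CPM. In animals 3 and 4 all 3 genes were lower in the graft than in the native bladder, and in animals 1 and 2 CD3E was higher in the graft. CD4 counted 6.81, 11, 17.1 and 34.3 CPM against 6.03, 7.67, 4.02 and 11 CPM, lower in 4 of 4 animals (log2 fold change -1.27, SE 0.58). Of the 15 B and plasma cell genes 0 were called, 0 had an unadjusted p under 0.05, 14 had a negative log2 fold change and the median was -1.56, and of the 17 rows tested for T and natural killer cells 0 were called, 1 (CD4) had an unadjusted p under 0.05, 16 were negative and the median was -0.85. The B cell list mean differed by 0.56, -0.02, -0.74 and -1.64, negative by more than 0.5 in animals 3 and 4 only. The T and natural killer cell list mean differed by 0.73, -0.34, -0.71 and -1.27, higher in the graft in animal 1 and lower in the other 3.

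Macrophage genes were mostly lower in the graft and mast cell genes higher. C1QC, a complement component made by tissue macrophages, counted 46, 141, 71 and 76.3 CPM in the natives and 42.4, 33.4, 15.8 and 75.7 CPM in the grafts, and CSF1R, the receptor for their growth factor, 27.1, 52.6, 22.4 and 29 CPM against 22.8, 19.4, 2.98 and 22.8 CPM. Both were lower in 4 of 4 animals, in animal 4 by little for C1QC. Fitted log2 fold changes were -1.0 (SE 0.48) and -0.95 (SE 0.48). CPA3, the carboxypeptidase of mast cell granules, counted 51, 12.7, 9.65 and 9.28 CPM against 99.7, 38.1, 116 and 22.7 CPM, and FCER1A, the IgE receptor subunit, 11.6, 3.67, 4.77 and 1.17 CPM against 15.5, 10.4, 22.4 and 8.64 CPM. Both were higher in 4 of 4 animals with overlapping groups, with log2 fold changes of 1.74 (SE 0.72) and 1.42 (SE 0.63). HDC, which makes histamine, counted 5, 3.55, 1.89 and 0.624 CPM against 7.1, 3.28, 19.7 and 4.06 CPM, higher in 3 of 4 animals. Of the 14 macrophage genes 0 were called and 1 (C1QC) had an unadjusted p under 0.05. C1QC, CSF1R and CD14, 3 of the list, were lower in 4 of 4 animals (4.16% of all genes). Of the 9 neutrophil and mast cell genes 0 were called, and 2 higher and 1 lower had an unadjusted p under 0.05. The mast cell genes CPA3, FCER1A and MS4A2 were higher in 4 of 4 animals (5.52% of all genes). The neutrophil genes S100A9, CSF3R and CXCR2 were lower in 4 of 4 (4.16% of all genes).

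Cell division genes, like lymphocyte genes, were highest in native 4. MKI67, a nuclear protein of dividing cells, counted 3.73, 0.367, 30 and 156 CPM in the natives and 0.52, 4.07, 11.8 and 32.9 CPM in the grafts, and CCNB1, a mitotic cyclin, 2.85, 1.35, 6.84 and 29.4 CPM against 1.91, 1.88, 4.38 and 7.26 CPM. Both were lower in the graft in animals 1, 3 and 4 and higher in animal 2. Of the 16 division genes tested 0 were called, 0 had an unadjusted p under 0.05 and 15 had a negative log2 fold change, with a median of -1.14 but list mean differences of -0.02, 0.46, -0.19 and -1.51, of which animal 4 had the one large value. The B and plasma cell list mean in native 4 was 6.36, against 1.16 to 4.36 in natives 1 to 3, and its part in the division values was not tested.

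Genes that mark the seeded cell types did not stand out. CD34, which marks haematopoietic progenitors and also endothelium and stroma, counted 85.5, 194, 79.2 and 37.5 CPM in the natives and 66, 247, 85.5 and 78.1 CPM in the grafts (log2 fold change 0.27, SE 0.50). Of the 12 haematopoietic stem and progenitor genes 0 were called, 1 (PROM1) had an unadjusted p under 0.05, 6 had positive and 6 negative values and the median was -0.09. Of the 11 mesenchymal stromal cell genes 0 were called, 1 (LEPR) had an unadjusted p under 0.05, and the median was 0.13. LEPR, the leptin receptor of marrow stroma, counted 4.72, 8.32, 2.33 and 2.34 CPM against 12.5, 31.6, 9.76 and 2.64 CPM, higher in 4 of 4 animals (log2 fold change 1.67, SE 0.65). The counts cannot separate seeded cells from cells of the bladder.

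Mesothelial and fat genes were uneven. MSLN, mesothelin, counted 0.509, 3.91, 0.786 and 26.6 CPM in the natives and 44.2, 0.799, 174 and 106 CPM in the grafts, and ITLN1, a lectin of mesothelium and of goblet cells, 0.961, 17.8, 4.53 and 133 CPM against 30, 7.51, 3697 and 190.2 CPM. LRRN4, a mesothelial membrane protein, had 0 native reads and 303 graft reads, at least 107-fold higher over the group against 3 counts, and 0, 0.479, 8.01 and 1.74 CPM in the grafts, mostly in graft 3. These 3 genes were highest in graft 3. Of the 7 mesothelial genes 0 were called and 1 (LRRN4) had an unadjusted p under 0.05, with a median of 2.43. FABP4, a fatty acid binding protein of fat and capillaries, counted 62.3, 57.7, 131 and 157 CPM against 165, 104, 215 and 172 CPM, higher in 4 of 4 animals, and ADIPOQ, adiponectin, 0, 0.449, 0 and 10.7 CPM against 0, 4.11, 10.3 and 14 CPM.

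**Figure D4:**
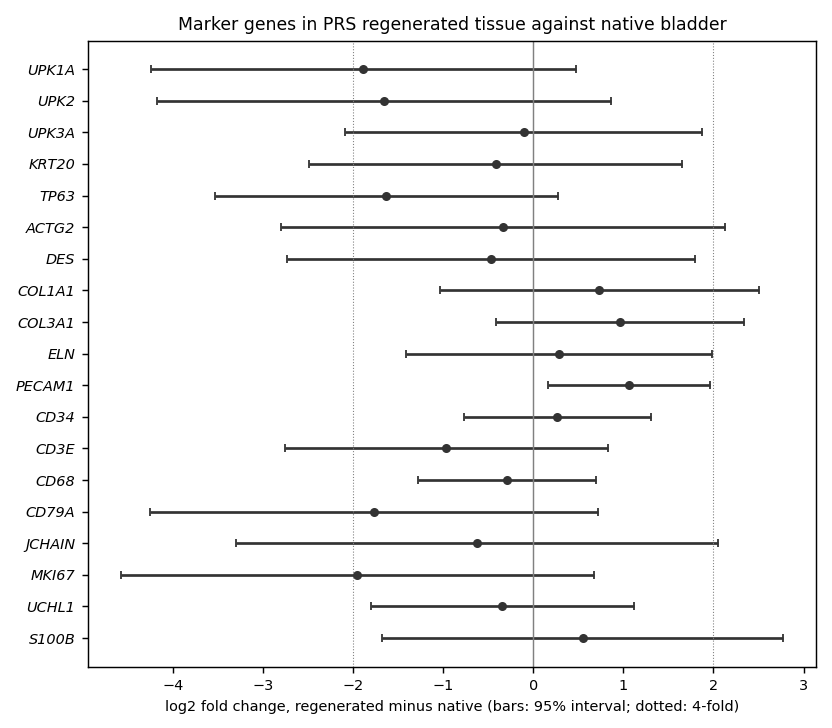
Log2 fold change, regenerated minus native (x axis), with its 95% interval (bars) for the 19 marker genes (y axis) that had more than 3 reads in each group, from edgeR over all 28 libraries; dotted lines mark 4-fold. The interval of PECAM1 lies above 0 before adjustment, and 11 of the 19 intervals reach beyond 4-fold lower, those of MKI67, CD79A and UPK1A farthest.

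Among the 12 genes of smallest p that were higher in all 4 animals, 6 had no read in any native library and 9 had at least 1 native library at 0. When a minimum count of 50 was asked, 7 were tested. That filter ran over all 6 groups, so a gene with few PRS reads could be kept through another group. VIL1, EDIL3 and ERICH4 were among the 7, with 43, 42 and 112 PRS graft reads. Their means in ileum grafts were 711, 11.7 and 57.3 CPM. TENM2, a teneurin of synapses, had 0 native reads against 1.42, 10.3, 0.324 and 0.237 CPM in the grafts, at least 111-fold higher over the group, most of its 314 reads lying in graft 2. SYN3, a synapsin, had 0 native reads and 0.347, 0.32, 1 and 0.671 CPM, at least 23.3-fold higher. EDIL3, an endothelial matrix protein, had 0 native reads and 0.243, 0.879, 0.227 and 0.237 CPM, at least 14.8-fold higher. DBX2, C9orf84 and KL, the last the klotho coreceptor, also had 0 native reads, with 55, 34 and 35 graft reads. All 6 were thus seen against native libraries 1 to 3, which held few genes with 1 to 10 reads, and the part of that in their values was not tested. The native bladders of the other arms held reads of all 6. Their means in SIS and Entero natives were 1.39 and 0.583 CPM for TENM2, 1.06 and 0.479 CPM for DBX2, and 0.717 and 0.0564 CPM for EDIL3. For SYN3 they were 0.294 and 0.292 CPM, for KL 0.364 and 0.139 CPM, and for C9orf84 0.121 and 0.286 CPM. The PRS graft means of DBX2, KL and C9orf84 were 0.530, 0.329 and 0.318 CPM.

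The other genes of this set had native reads. CDH26, a cadherin of mucosal epithelium, counted 1.98, 0, 1.97 and 7.05 CPM in the natives and 57, 2.24, 189 and 14.7 CPM in the grafts, and each graft lay above its own native (log2 fold change 4.58, SE 1.29). ZNF543, a zinc finger gene, was steadier, with 3.81, 4.2, 2.73 and 4.01 CPM against 6.55, 10.5, 7.91 and 8.01 CPM, no overlap of the groups and a log2 fold change of 1.16 (SE 0.34). The PRS natives lay below every other native bladder for ZNF543, which ranged from 6.18 to 12.2 CPM in SIS natives and from 6.48 to 8.82 CPM in Entero natives. The part of low PRS natives in its difference was not tested. ERICH4 counted 0.254, 0, 0 and 0 CPM against 0.658, 2.6, 0.389 and 0.631 CPM. None of the 12 was called by edgeR, with unadjusted p from 0.000262 (TENM2) to 0.00248 (KL). DESeq2 called 7 of them, TENM2, CX3CL1, EDIL3, DBX2, CDH26, SCG3 and ZNF543, with adjusted p from 0.00017 (TENM2) to 0.0485 (DBX2).

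The 12 genes of smallest p that were lower in all 4 animals were all tested at a minimum count of 50, the same filter over all 6 groups. SNN, stannin, counted 21.7, 16.8, 9.46 and 16.4 CPM in the natives and 10.4, 6.43, 4.31 and 5.72 CPM in the grafts (log2 fold change -1.26, SE 0.35). MOGAT2, an acyltransferase of fat resynthesis, counted 4.27, 24.7, 5.92 and 0.818 CPM against 1.18, 0.32, 0.357 and 0.0394 CPM (log2 fold change -4.21, SE 1.21). CEBPA, a transcription factor of differentiation, counted 18.9, 53.6, 52.4 and 25.3 CPM against 14.5, 12, 13.5 and 13.8 CPM (log2 fold change -1.48, SE 0.51). For CEBPA all 4 grafts lay below all 4 natives, and for SNN and MOGAT2 the groups overlapped. EVL, an actin regulator, counted 76.6, 67.1, 80.3 and 113 CPM against 59, 33.9, 43.5 and 57.9 CPM, and no graft overlapped a native. SLC23A2, a vitamin C transporter, counted 19.7, 49.5, 58.2 and 28.7 CPM against 13.9, 24.6, 13.7 and 16.6 CPM.

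The remaining 6 genes of this set included a phosphatase, a kinase and a ribosomal protein gene. TSSC1 counted 52.5, 69.9, 64.4 and 63.3 CPM against 46.2, 26, 39.4 and 47.8 CPM, CTDP1, a phosphatase of RNA polymerase II, 55.2, 60.6, 64.8 and 76.9 CPM against 42.2, 27.5, 45.9 and 48.6 CPM, and neither had overlapping groups. SERTAD2 counted 9.1, 19, 17.6 and 17.2 CPM against 6.62, 13.3, 2.98 and 4.34 CPM, and XYLB, xylulokinase, 5.79, 7.01, 5.48 and 1.87 CPM against 2.15, 1.28, 1.88 and 0.986 CPM. CDKN2D, an inhibitor of cyclin-dependent kinases, counted 5.62, 10.8, 6.26 and 17.3 CPM against 2.43, 4.07, 5.96 and 5.64 CPM. RPS15A, a ribosomal protein gene with near-identical copies whose counts are therefore uncertain, counted 13.6, 119, 96.4 and 9.94 CPM against 9.53, 11.5, 11.7 and 7.93 CPM, the difference lying in animals 2 and 3. Unadjusted edgeR p over these 12 genes ran from 0.00127 (RPS15A) to 0.0125 (CDKN2D). DESeq2 called 1 of them, MOGAT2 (DESeq2 adjusted p = 0.0343).

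Of the other genes that DESeq2 called, 4 with few reads are given here, chosen after their values were seen. CRYGC, a lens crystallin, had 0 native reads and 0.485, 0.879, 0.907 and 0 CPM in the grafts. NEFL, a neurofilament gene, was called on 7 reads of graft 1. PROK1, prokineticin 1, counted 0.932, 1.55, 2.6 and 0 CPM in the natives and had 0 graft reads, at least 53.5-fold lower over the group against 3 counts, with no read in native 4 either. SERPINA9, a germinal centre gene, counted 0.393 and 3.82 CPM in natives 3 and 4 and had 0 reads in the other 6 libraries. Of the 30 calls 12 went the same way in 4 of 4 animals, and 19 had an unadjusted edgeR p under 0.05.

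Per length, mitochondrial transcripts and a few urothelial and muscle genes led the grafts. The highest means over the 4 grafts were 25489.7 RPKM (reads scaled to gene length and library size) for COX1, 15903 for COX2 and 12254 for PSCA, and MMP7 stood at 8846 RPKM against 2347 in the natives. TAGLN, transgelin of smooth muscle, had 7778 RPKM in the grafts and 9227 in the natives, and EEF1A1, a translation factor, 5694 and 5833 RPKM. The share of counts from the 13 mitochondrial genes was 10.7%, 4.66%, 8.11% and 9.30% in the natives and 10.4%, 8.89%, 10.4% and 9.21% in the grafts. Its means, 8.18% ± 2.57 (SD, n = 4) and 9.73% ± 0.797 (SD, n = 4), differed by 1.55 percentage points, less than the spread between natives (two-sided exact permutation p = 0.371, smallest possible 0.0286). Native 2 accounted for most of the difference, and exact sign flips over the 4 pairs gave p = 0.5, with 0.125 the smallest possible.

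The change from native bladder to graft was then set against that in the other arms, in the same fit. Against the SIS arm edgeR called 0 of 17177 genes (0%), and 683 (3.98%) passed 0.05 without adjustment. DESeq2 gave 20 calls. The genes of smallest p were mostly scarce in the PRS arm. MMP3, stromelysin, counted 0.622, 2.2, 1.91 and 1.01 CPM in the PRS natives and 0.728, 0, 0 and 0.631 CPM in the PRS grafts, against a mean of 0.837 CPM in SIS natives. In the SIS grafts it ranged from 0.279 to 814 CPM, with a mean of 164 CPM that fell to 0.886 CPM without SIS graft 2. C1orf145 had 81 native reads and 1 graft read in the PRS arm. RNF19B, a ubiquitin ligase, counted 40.5, 59.5, 30.3 and 42.9 CPM against 28.9, 24.3, 28.5 and 27.6 CPM, with SIS means of 19.2 in natives and 62.7 CPM in grafts, the latter 27.1 CPM without SIS graft 2. SESN2, a stress-induced sestrin, counted 7.23, 16.9, 20.7 and 9.2 CPM against 9.01, 7.55, 8.56 and 8.8 CPM, with SIS means of 8.88 in natives and 25 CPM in grafts, the latter 14.6 CPM without SIS graft 2. SIS graft 2 held the highest SIS graft value of all 3 genes, and its part in these differences was not tested. On the side that was higher in the PRS arm, TENM2 and DBX2 are described above, KCNJ3 had 17 graft reads in grafts 2 and 4, and the 27 graft reads of MNX1 lay in graft 3.

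Against ileum grafts the PRS change differed for 596 of 17177 genes (3.47%), 268 higher in the PRS arm (1.56%) and 328 lower (1.91%). Before adjustment 1492 were higher (8.69%) and 1264 lower (7.36%). Without PRS graft 1 the count was 390, with the animal as a block 240, and DESeq2 called 1182. Of the 28 genes named in this text that were called, 10 remained called with the block, and 8 of them (CDHR5, HOXD13, KRT20, LEPR, MMP7, MOGAT2, TP63 and UPK3A) in every alternative that gave them a value. In the urothelial differentiation list 8 of 14 genes were called higher and 1 lower, and with the block 2 and 1. UPK3A had a difference of 7.52 on the log2 scale (SE 1.45, edgeR adjusted p = 0.00315), with 804 CPM in Entero natives and 4.06 CPM in ileum grafts as means of 5. UPK1A differed by 6.39 (SE 1.63, edgeR adjusted p = 0.0258, 0.0586 with the block), and its call was lost without native 1, native 4 or graft 1. SNX31 differed by 7.34 (SE 1.42, edgeR adjusted p = 0.00315, 0.0516 with the block). KRT20 was the 1 called lower, with 1353 CPM in ileum grafts (difference -7.86, SE 1.51, edgeR adjusted p = 0.00315). The basal list had 2 of 9 called higher, and 1 with the block, TP63, which had 3 reads in the 5 ileum grafts (edgeR adjusted p = 0.00312).

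Of the regional mesenchyme factors 6 of 15 were called higher in the PRS arm than the ileum change, 4 with the block, and none lower. HOXD13 and TBX4 had 0 reads in the 5 ileum grafts and 30.3 and 23 CPM as means of their 5 natives, or 16.7 and 14.5 CPM without the highest library (edgeR adjusted p = 0.000707 and 0.0349). The call of TBX4 was lost with the block (edgeR adjusted p = 0.168) and without native 2, 3 or 4 or graft 1 or 2. Of the intestinal epithelium genes 7 of 16 were called lower, 3 with the block, among them CDHR5 (difference -6.88, SE 1.46, edgeR adjusted p = 0.0067) and LGALS4 (difference -5.4, SE 1.23, edgeR adjusted p = 0.0118, 0.0791 with the block). In the intestinal secretory and crypt list 1 of 10 genes was called lower, 0 with the block, and CLCA1 had a difference of -1.14 (SE 1.92, edgeR adjusted p = 0.831) with 1575 CPM in ileum grafts. MMP7 was called higher (difference 9.35, SE 1.72, edgeR adjusted p = 0.00213), with 2232 CPM in Entero natives and 12.9 CPM in ileum grafts, the latter 6.59 CPM without the highest library. PSCA differed by 8.34 (SE 1.79, edgeR adjusted p = 0.00717, 0.0577 with the block). No contractile gene of smooth muscle was called in either direction, 0 of 16.

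**Figure D5:**
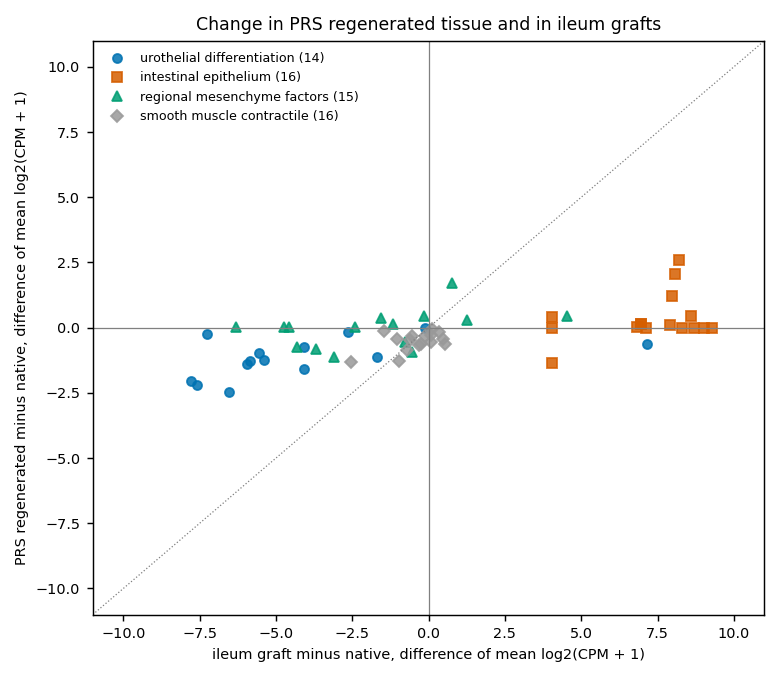
Difference of mean log2(CPM + 1), graft minus native, in the PRS arm (y axis) against that in the ileum arm (x axis) for genes of 4 lists; each point is a gene, and the dotted line marks equal values. Most urothelial and regional genes lie left of 0 and most intestinal genes right of it along the x axis, over a wider range than along the y axis.

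Some of the largest differences from the ileum arm rested on genes with few PRS reads. SLC2A2, a glucose transporter, had 18 native reads and 0 graft reads in the PRS arm against a mean of 73.9 CPM in ileum grafts, 39.7 CPM without the highest of them. NAT16 and SLC25A48 had 6 native reads and 0 graft reads each. MYH6, a cardiac myosin, had 0 native and 15 graft reads in the PRS arm, a mean of 3.62 CPM in Entero natives, 0.443 CPM without the highest of them, and 2 reads in ileum grafts. These 4 calls had edgeR adjusted p between 0.00166 (SLC2A2) and 0.0281 (MYH6), and none held with the block, where the values ran from 0.0591 (SLC2A2) to 0.189 (NAT16). Without native 4 the calls of NAT16 and SLC25A48 were lost, without native 3 that of SLC2A2, and without any single native or graft 1 that of MYH6. LEPR was called higher with reads in every group, at 5.69 CPM in Entero natives and 1.12 CPM in ileum grafts (difference 4.01, SE 0.89, edgeR adjusted p = 0.00935). GATA2, a factor of progenitors and of urothelium, counted 197, 177, 174 and 97.4 CPM in the PRS natives and 172, 18.1, 129.7 and 97 CPM in the PRS grafts, and its difference was 3.83 (SE 0.93, edgeR adjusted p = 0.0186), a call lost with the block (edgeR adjusted p = 0.0837) and without graft 1.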

How the data were processed

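RNA-seq was run on pieces of native bladder and of regenerated or grafted tissue from each animal, per the labels' protocols. The authors deposited raw read counts per gene for 28 libraries in 6 groups, and a gene length in bases of other origin that is not described, used here for RPKM only. The submitters' processing notes name featureCounts 1.5.0-p3, StringTie 1.3.3b and HISAT2 2.0.5. Neither the genome build nor the strand setting is stated, so genes that overlap, or that have near-identical copies, are uncertain. The table named a symbol for 21253 of 27533 genes.

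Counts of all 28 libraries were fitted in R 4.3.3 with edgeR 4.0.16 (quasi-likelihood test, TMM factors, filterByExpr with a minimum count of 10, which kept 17177 genes, and Benjamini-Hochberg adjustment over these at 0.05). The contrasts were PRS regenerated minus native, and that change minus the SIS or the ileum change. SE is the absolute log2 fold change divided by the square root of F. The fit was also run on simulated counts with a fixed spread, no differences between animals, and changes placed only in genes of higher counts. That run cannot tell how the fit performs at the spread of these data or on scarce genes. Alternatives were DESeq2 1.42.0, relative log expression factors, other count filters, PRS libraries only, voom with quality weights (limma 3.58.1), the animal as a block and leaving out libraries.

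PRS libraries held 22576355 to 35669026 counts. The numbers in the labels pair a graft with the native bladder of its animal, and the deviations of the PRS pairs from their group means correlated at r = 0.19, 0.29, 0.23 and 0.71. In the main edgeR fit the p-values and SE rest on a spread estimated over all 28 libraries in 6 groups. They do not use the pairing of graft and native bladder.

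The genes named were the 12 of smallest unadjusted p in each direction among those that moved the same way in all 4 animals, the 4 of largest size or smallest p per direction in each difference between arms, up to 4 of smallest p from each of 35 gene lists, the 10 most abundant per length, and 23 fixed markers, of which 2 were not in the table under their symbols. A further 14 genes were added after their values were seen. The samples compared and the gene lists were chosen with earlier results of these data known, and the lists received no test. Some genes that the rule names are not reported here.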

Additional observations from a re-analysis of the deposited data

Results flagged for a closer look

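A library was set apart where its gap to the nearest of the 4 libraries of its group relative to the range of log2(CPM + 1) exceeded Dixon's 95% critical value, which chance exceeds in about 1 in 20 groups of normally distributed values. Where only 1 library of a group had reads, it was set apart by construction, and that rate does not apply. This held for COL11A1, ERICH4 and SLC2A2. In native library 4 it held for NAT16, NKX2-3, P2RX7, RAB44, SLC25A48, SLC5A1, SNAP25, TFF3, TRPC4 and VIL1. Among the grafts it held for C1orf145, CDX2, MNX1, NEFL and TGM3. In native library 1 the genes set apart were COL11A1 (0.0565 CPM), ERICH4 (0.254 CPM) and SERTAD2 (9.1 CPM). In native library 2 it was FOSB (199 CPM). In native library 3 it was SLC2A2 (0.472 CPM). In native library 4 the genes set apart were ADIPOQ (10.7 CPM), NAT16 (0.234 CPM), NKX2-3 (0.0779 CPM), P2RX7 (1.91 CPM), RAB44 (1.6 CPM), SLC25A48 (0.234 CPM), SLC5A1 (80.2 CPM), SNAP25 (0.468 CPM), TFF3 (15.2 CPM), TP63 (28.6 CPM), TRPC4 (1.05 CPM), UCHL1 (12.1 CPM) and VIL1 (0.0779 CPM). In regenerated library 1 the genes set apart were C1orf145 (0.0347 CPM) and NEFL (0.243 CPM). In regenerated library 2 the genes set apart were EDIL3 (0.879 CPM), EEF1A1 (16587 CPM), PSCA (328 CPM), TAC1 (0 CPM), UPK3A (97.6 CPM) and VEGFA (49.3 CPM). In regenerated library 3 the genes set apart were CSF1R (2.98 CPM) and MNX1 (0.875 CPM). In regenerated library 4 the genes set apart were CDX2 (0.0394 CPM) and TGM3 (0.631 CPM).

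By the same measure single libraries stood apart in the mean log2(CPM + 1) of these lists: WNT and hedgehog signalling (graft, 3.81), haematopoietic stem and progenitor (graft, 3.16), mesenchymal stromal cell (graft, 6.66), adipocyte (native, 5.69), bone and cartilage (graft, 1.53), skeletal muscle (graft, 1.74), interferon response (native, 6.45), hypoxia and glycolysis (native, 5.28). For the adipocyte list the graft minus native difference of 1 animal, 2.13, stood apart from the other 3. Native library 4, with 1805 genes of 1 to 10 reads, stood apart from the other natives.

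The change from native bladder to graft differed between the PRS and the ileum arm by edgeR's test of the difference, with the adjusted p in brackets. It was higher in the PRS arm for HOXD13 (0.000707), MMP7 (0.00213), TP63 (0.00312), SNX31 (0.00315), UPK3A (0.00315), DBX2 (0.00323), PSCA (0.00717), ZNF543 (0.0087), LEPR (0.00935), SYN3 (0.0145), GATA2 (0.0186), FAM83C (0.019), UPK1A (0.0258), UPK2 (0.0272), MYH6 (0.0281), TENM2 (0.0315), TBX4 (0.0349), SPRR1B (0.0389). It was lower for SLC2A2 (0.00166), MOGAT2 (0.00215), SLC25A48 (0.00269), KRT20 (0.00315), CDHR5 (0.0067), NAT16 (0.00732), LGALS4 (0.0118), SESN2 (0.0249), CEBPA (0.0352), RPS15A (0.0363). Several of these genes had a group with 3 or fewer reads, and 10 of the 28 remained called with the animal as a block.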

How the results depend on the processing

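The comparison of regenerated tissue with native bladder had 0 calls in edgeR with TMM and with relative log expression factors, without a count filter, at a minimum count of 50, with the replicate block and with PRS libraries only, and in voom with quality weights, which had 1975 genes at an unadjusted p under 0.05. The count at an unadjusted p under 0.05, 622 with all libraries, was 253 with PRS libraries only and 1296 without native 4. DESeq2 gave 30 calls. Leaving out single PRS libraries gave 0 to 3 calls; the 3, RAB44, TRPC4 and P2RX7, came without native 4 and had 0 reads in natives 1 to 3 but 1.60, 1.05 and 1.91 CPM in native 4 (edgeR adjusted p = 0.0249, 0.0249 and 0.0341). The PRS minus SIS change gave 0 calls in edgeR and 20 in DESeq2. The PRS minus ileum change, 596 calls, gave 1182 in DESeq2, 240 with the replicate block (219 of them shared), and 390 to 572 without single libraries, the lowest without regenerated library 1. An alternative chosen after seeing the data, leaving out both libraries of an animal, gave 0 calls for tissue against native, and 342 without animal 1, 463 without animal 2, 421 without animal 3 and 347 without animal 4 for the ileum comparison. Of the 28 named genes called there, the replicate block kept 10, and 8 were called in every alternative that gave a value; none changed sign. The replicate block changed no call in the other comparisons. Group means of the other arms without their highest library were also added after seeing the data.

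Of the genes named, 23 with an unadjusted p of 0.05 or more changed the sign of their log2 fold change in at least 1 alternative, and 15 were called in an alternative, 12 of them by DESeq2 and the other 3 without native 4. For 7 there was no value in at least 1 alternative. With 4 animals the 95% interval exceeded 2-fold for most genes, a level resting on few reads has a wide counting interval, and genes at 0 in the natives have only a lower bound.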

Other observations

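The mitochondrial gene ATP6, a subunit of ATP synthase, differed more between animals than between the tissues of an animal: it counted 15400.2, 635, 510.0 and 2979 CPM in native bladders 1 to 4 and 12293, 566, 1029 and 3049 CPM in the grafts of the same animals. COX1, from the same genome, stayed between 23467 and 44767 CPM in the 8 libraries. The pattern was noticed after the values were seen, and its cause was not tested.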
